A study of Mus musculus with 6 samples.

Results

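The genes described here are 35 genes used to recognise macrophages of the liver, measured in hepatocyte preparations. They comprise 7 genes of resident Kupffer cells, 6 genes of lipid-associated macrophages and 22 genes shared by most macrophages, chosen by gene symbol out of 54532 genes in the deposited table. Each symbol was found once, each gene was annotated as protein coding, and all 35 passed the filter on low counts. The study concerned XBP1, a transcription factor that answers stress of the endoplasmic reticulum, in the progression of non-alcoholic steatohepatitis. The XCKO group was Xbp1ΔHep, in which Xbp1 was deleted in hepatocytes (3 libraries), and the XCON group was Xbp1FL/FL, in which the gene was floxed and not deleted (3 libraries). Mice of both groups had a C57BL/6 background, were 32 to 34 weeks old and had received a high-fat diet for 26 weeks. The Cre driver was not given in the sources used here. RNA was taken from primary hepatocytes isolated from these livers, so macrophage RNA in the libraries was RNA that accompanied a preparation labelled as hepatocytes.

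Kupffer cells are the resident macrophages of the liver sinusoids, where they clear particles, bacteria and ageing red cells from the blood, and they carry a set of lectins and scavenger receptors that few other cells express. In fatty liver, a further macrophage state forms that takes up lipid and dead cells and expresses Trem2, Gpnmb, Cd9 and Spp1, and its cells are called lipid-associated macrophages. Genes such as Csf1r, the receptor for the macrophage growth factor, and Cd68, a lysosomal membrane protein, are expressed across both. In bulk RNA, fewer cells of a type and less RNA per cell cannot be told apart.

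Counted reads per library ran from 26477489 to 27240079 in XCKO and from 23919355 to 26502456 in XCON. Levels are given in counts-per-million units (CPM), with library totals scaled by the trimmed mean of M values (TMM). Xbp1 averaged 55.2 ± 14.4 CPM in XCKO and 261 ± 79.0 CPM in XCON (SD, n = 3 each). Its log2 fold change was −2.24 ± 0.29 (SE, Benjamini-Hochberg adjusted p = 0.00837 by the quasi-likelihood test of edgeR). No source used here says which exons were floxed, and the gene's count does not isolate the deleted part. The 11 hepatocyte markers summed to 93614 to 125178 CPM in XCKO and 67437 to 86895 CPM in XCON, far above the marker sum of any other cell type listed. Hpd, Asgr1 and Apoa2 of that list were higher in XCKO. Mitochondrial genes took 8.99% to 13.1% of the reads in the XCKO libraries, and 22.8% in XCON 1 against 9.79% and 9.30% in XCON 2 and XCON 3. No label names the mouse behind a library, so p-values here measure the spread between these libraries.

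Nearly all of the macrophage genes had lower mean levels in XCKO, and few passed the test one by one. The log2 fold change was below 0 for 34 of the 35 genes, while it was below 0 for 53.5% of the 14873 genes tested. The median log2 fold change was −1.14 over the 35 genes and −0.05 over all genes tested. The quasi-likelihood test of edgeR called 3 genes at an adjusted p under 0.05, Cd68, Fcgr1 and Gpnmb, all lower in XCKO. They made up 8.57% of the 35, beside 4.05% of all tested genes called lower, and no gene of the 35 was called higher. In 24 of the 35 (68.6%), every XCKO library lay below every XCON library, and 18.1% of all tested genes did so. A further 24 of the 35 had an unadjusted p under 0.05 and did not pass after adjustment. A single gene, Fcgr2b, had a log2 fold change above 0.

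**Figure D1:**
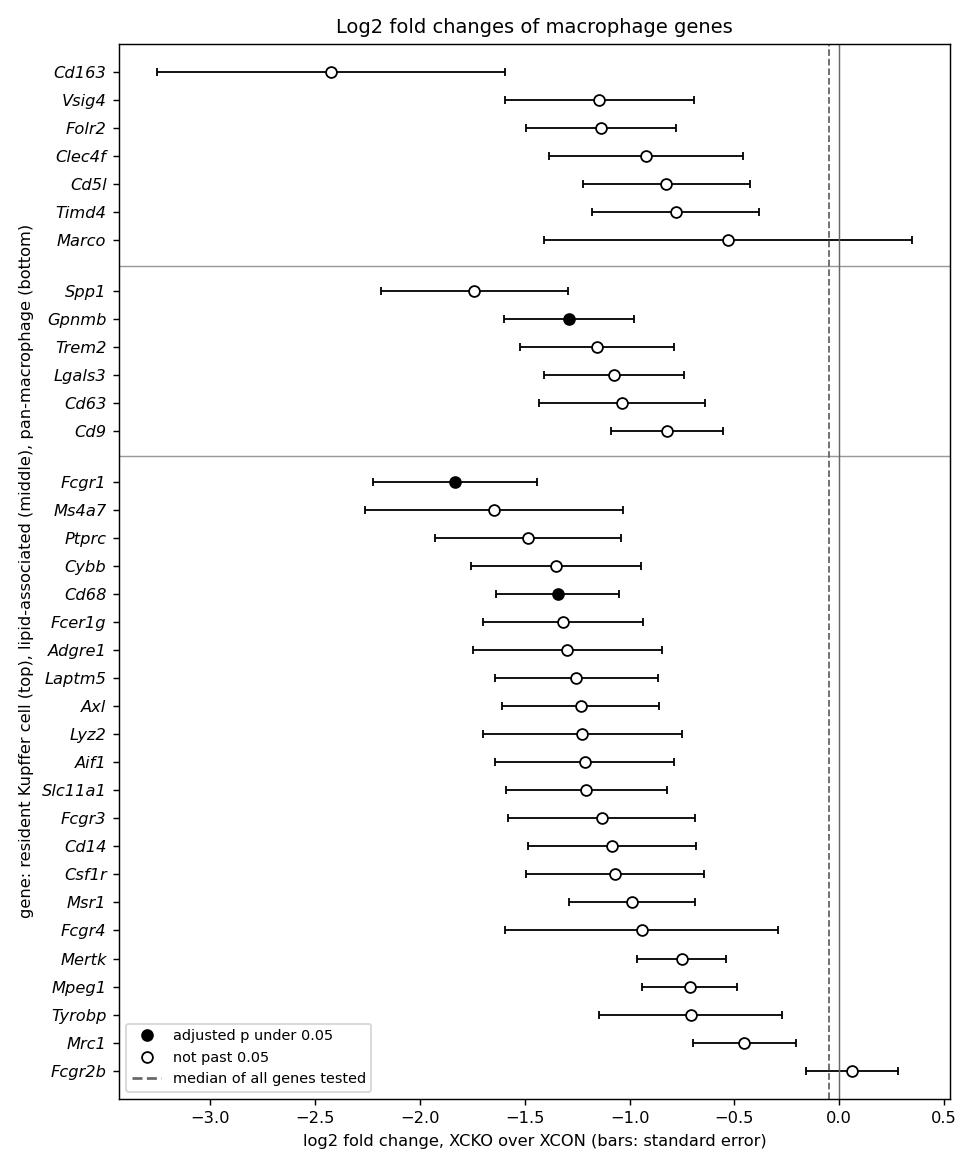
Log2 fold changes (XCKO over XCON, horizontal axis) of the 35 genes in their 3 classes, with bars for the standard error and filled points for genes past an adjusted p of 0.05. All but Fcgr2b lie left of 0, and the dashed line marks the median of all genes tested at −0.05.

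Cd68 encodes a heavily glycosylated protein of late endosomes and lysosomes and is the usual histological marker of macrophages. Cd68 (ENSMUSG00000018774, chromosome 11, 69664213 to 69666153, minus strand, in the coordinates of the deposited table) had 22.1, 13.9 and 29.4 CPM in the XCKO libraries, against 52.1, 71.0 and 42.7 CPM in the XCON libraries. The groups did not overlap, and XCKO 2 was lowest and XCON 2 highest. Its mean was 21.8 ± 7.78 CPM in XCKO and 55.3 ± 14.4 CPM in XCON (SD, n = 3 each), a 2.53-fold lower level (log2 fold change −1.34 ± 0.29 SE, edgeR adjusted p = 0.0326).

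Fcgr1 encodes the high-affinity receptor for immunoglobulin G, which triggers phagocytosis of coated particles. Fcgr1 (ENSMUSG00000015947, chromosome 3, 96282909 to 96293969, minus strand) had 6.92, 3.38 and 7.87 CPM in XCKO, against 19.0, 31.5 and 14.1 CPM in XCON. The groups did not overlap here either, and the same pair of libraries held the extremes. Its log2 fold change of −1.83 ± 0.39 was the largest of the 3 genes that passed (3.56-fold lower, edgeR adjusted p = 0.0330). Reads per library were 87 to 182 in XCKO and 417 to 859 in XCON.

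Gpnmb encodes a transmembrane glycoprotein of lysosomes and melanosomes that is expressed strongly by lipid-laden macrophages. Gpnmb (ENSMUSG00000029816, chromosome 6, 49036546 to 49070929, plus strand) had 35.4, 38.7 and 71.7 CPM in XCKO, against 112, 153 and 90.5 CPM in XCON. XCKO 3, the highest XCKO library, was still below XCON 3, the lowest XCON library. The mean was 48.6 ± 20.1 CPM in XCKO and 119 ± 31.7 CPM in XCON (SD, n = 3 each), with a log2 fold change of −1.29 ± 0.31 (2.44-fold lower, edgeR adjusted p = 0.0413). Other settings ended single calls. Gpnmb had an adjusted p of 0.0745 with an offset for gene length, Fcgr1 0.0999 without the filter on low counts, and with limma on log2(FPKM + 0.1) Cd68 had 0.0503 and Gpnmb 0.0557.

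All 3 calls depended on which libraries were included. Cd68 passed in 3 of 6 fits that each left out 1 library, with a highest adjusted p of 0.0809 (without XCKO 1). Fcgr1 passed in 2 of 6 (highest 0.0795, without XCKO 1) and Gpnmb in 1 of 6 (highest 0.105, without XCKO 2). Between 0 and 3 of the 35 genes passed in these fits, with none passing without XCKO 1 or without XCON 2. Cd163 passed without XCON 1 (adjusted p = 0.0377) and Trem2 without XCKO 3 (adjusted p = 0.0388). The median log2 fold change of the 35 genes ran from −0.81 without XCKO 2 to −1.50 without XCKO 3.

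Fcgr2b had the 1 log2 fold change above 0 of the 35 genes and did not pass the threshold. The 250 bases before RefSeq's start are shown for it and for the 3 genes that fell, to be read side by side. They come from RefSeq on GRCm38.p6, each 5′ to 3′ on its gene's own strand. Capitals mark the letters GAGGAA, or TTCCTC on the other strand, the core bound by PU.1, the transcription factor that myeloid cells require. The windows lie at chr11:69666171-69666420 (Cd68, minus strand), chr3:96293970-96294219 (Fcgr1, minus), chr6:49036268-49036517 (Gpnmb, plus) and chr1:170976072-170976321 (Fcgr2b, minus). The deposited table starts Fcgr2b further upstream, at base 170976547 of chromosome 1, so the window of Fcgr2b lies inside the gene as tabulated.
Cd68: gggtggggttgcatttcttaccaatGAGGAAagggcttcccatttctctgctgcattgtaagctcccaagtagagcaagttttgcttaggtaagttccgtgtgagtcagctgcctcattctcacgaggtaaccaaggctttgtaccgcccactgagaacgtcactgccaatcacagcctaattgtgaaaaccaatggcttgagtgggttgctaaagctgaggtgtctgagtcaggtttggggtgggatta
Fcgr1: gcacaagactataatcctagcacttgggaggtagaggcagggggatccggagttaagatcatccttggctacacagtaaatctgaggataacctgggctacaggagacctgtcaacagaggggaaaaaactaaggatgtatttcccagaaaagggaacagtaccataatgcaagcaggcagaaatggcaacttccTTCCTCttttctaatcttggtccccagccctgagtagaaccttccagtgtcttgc
Gpnmb: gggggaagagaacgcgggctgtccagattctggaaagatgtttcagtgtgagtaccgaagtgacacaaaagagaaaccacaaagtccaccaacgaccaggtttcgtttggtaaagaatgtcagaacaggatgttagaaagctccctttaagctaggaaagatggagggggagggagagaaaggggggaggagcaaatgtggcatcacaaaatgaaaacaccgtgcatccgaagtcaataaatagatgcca
Fcgr2b: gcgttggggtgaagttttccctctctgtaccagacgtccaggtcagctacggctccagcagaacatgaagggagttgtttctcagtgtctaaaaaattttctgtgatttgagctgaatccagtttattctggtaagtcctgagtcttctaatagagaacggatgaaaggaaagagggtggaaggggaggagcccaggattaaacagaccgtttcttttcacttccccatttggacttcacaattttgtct
Counted from RefSeq's start, the core begins at base −225 in Cd68 and at base −55 in Fcgr1, and these letters are not in the windows of Gpnmb and Fcgr2b. RefSeq promoters were matched for 30 of the 35 genes, with 35 starts between them. GAGGAA, read on both strands, was in 17 of the 35 windows (48.57%), from 16 genes, and in 7639 of 32851 windows of all genes (23.25%). TCACATG, a site read by MITF and TFE factors, was in 1 of the 35 windows (Mrc1) and in 3.5% of all windows. The palindromic E-box CACGTG was in 0 of the 35 windows and in 6.02% of all windows. These are matches of letters and say nothing of binding.

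Resident Kupffer cell genes gave no call among 7, with a median log2 fold change of −0.92, and 4 of the 7 had groups that did not overlap. Clec4f, a lectin that in mouse liver marks Kupffer cells, had 168, 60.7 and 138 CPM in XCKO, against 140, 368 and 186 CPM in XCON (log2 fold change −0.92 ± 0.46, adjusted p = 0.229). The groups overlapped, since XCKO 1 lay above XCON 1. Cd5l, a secreted scavenger protein that Kupffer cells release in quantity, had 344, 130 and 335 CPM in XCKO, against 411, 665 and 356 CPM in XCON. Its groups did not overlap, although XCKO 1 and XCON 3 differed by little (log2 fold change −0.83 ± 0.40, adjusted p = 0.210).

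Vsig4, the complement receptor with which Kupffer cells capture bacteria from the blood, had 43.9, 16.7 and 47.1 CPM in XCKO, against 65.6, 121 and 51.8 CPM in XCON (log2 fold change −1.14 ± 0.45, adjusted p = 0.144). Timd4, a receptor for phosphatidylserine on dying cells and a marker of long-lived Kupffer cells, had 4.61, 1.44 and 3.85 CPM in XCKO, against 5.66, 6.71 and 4.63 CPM in XCON (adjusted p = 0.225). Folr2, a folate receptor of resident macrophages, came nearest to the threshold in this class with a log2 fold change of −1.14 ± 0.36 (adjusted p = 0.0776). In Vsig4, Timd4 and Folr2 the groups did not overlap, and XCKO 2 was lowest and XCON 2 highest in each.

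Cd163 and Marco, scavenger receptors for haemoglobin complexes and for bacteria, were the resident genes with the fewest reads. Cd163 had 0.648, 0.699 and 1.34 CPM in XCKO, against 0.847, 10.1 and 3.45 CPM in XCON. Its log2 fold change of −2.42 ± 0.83 was the largest in size of the 35 genes (adjusted p = 0.105), and without XCON 2 it was −1.26. Marco had 2.10, 0.155 and 5.10 CPM in XCKO, against 2.23, 3.81 and 4.53 CPM in XCON, with full overlap (−0.53 ± 0.88, adjusted p = 0.718). Without XCKO 2 the log2 fold change of Marco was 0.088.

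Lipid-associated macrophage genes had log2 fold changes from −0.82 to −1.74, with a median of −1.11 over 6 genes, and the groups did not overlap in 5 of the 6. Gpnmb, described above, was the 1 call. Spp1, which encodes the secreted matrix protein osteopontin, had 76.7, 76.3 and 157 CPM in XCKO, against 563, 227 and 245 CPM in XCON. XCON 1 stood far above the other libraries, and the log2 fold change was −1.74 ± 0.44 (adjusted p = 0.0526). Bile duct cells also express Spp1, and the 6 cholangiocyte markers summed to 13.6, 7.22 and 5.36 CPM in XCKO, against 22.0, 35.8 and 28.0 CPM in XCON. None of the 5 markers tested passed, and all 5 had an unadjusted p under 0.05. Krt7 had the smallest p among them (−1.83, edgeR adjusted p = 0.0720). The part of bile duct cells in the Spp1 values was not tested.

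Trem2, the lipid-sensing receptor that defines the state, had 7.00, 5.47 and 14.1 CPM in XCKO, against 17.3, 26.1 and 15.6 CPM in XCON (log2 fold change −1.16 ± 0.37, adjusted p = 0.0870). Its groups did not overlap, with XCKO 3 just under XCON 3. Lgals3, the sugar-binding protein galectin-3, had 29.1, 17.3 and 40.5 CPM in XCKO, against 77.7, 62.5 and 42.5 CPM in XCON (−1.07 ± 0.33, adjusted p = 0.0810). Cd9 and Cd63 encode tetraspanins, membrane proteins of the cell surface and of late endosomes that many cell types make. Cd9 had 39.3, 27.7 and 37.2 CPM in XCKO, against 86.9, 54.6 and 42.8 CPM in XCON (adjusted p = 0.0849). Cd63 had 21.9, 16.3 and 27.3 CPM in XCKO, against 71.4, 39.7 and 23.4 CPM in XCON, where XCKO 3 exceeded XCON 3 (adjusted p = 0.134). Spp1, Cd9, Cd63 and Lgals3 were highest in XCON 1, the library with the most mitochondrial reads, whereas no resident gene was highest there. The part of that library's composition in these values was not tested.

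Among the 22 genes shared by most macrophages, 2 fell (Cd68 and Fcgr1), the median log2 fold change was −1.21, and the groups did not overlap in 15. Of the receptors for immunoglobulin G, Fcgr1 fell as described above, and differences in response between these receptors were not tested. Fcgr3, an activating receptor of low affinity, had 17.0, 6.44 and 22.7 CPM in XCKO, against 28.6, 46.6 and 25.9 CPM in XCON (−1.13, adjusted p = 0.144). Fcgr4, an activating receptor of intermediate affinity in the mouse, had 14.6, 4.54 and 26.0 CPM in XCKO, against 23.0, 45.2 and 18.4 CPM in XCON, with overlap (−0.94, adjusted p = 0.384). Fcgr3, Fcgr4 and Fcgr2b are related in sequence and lie close together on chromosome 1, and no source used here says how reads that fit several of them were counted.

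Fcgr2b encodes the inhibitory receptor for immunoglobulin G, which macrophages share with B cells and, in liver, with the endothelium of the sinusoids. Fcgr2b had 127, 68.2 and 101 CPM in XCKO, against 92.4, 101 and 89.7 CPM in XCON. The 3 XCON libraries lay inside the range of the XCKO libraries, and the means were 98.6 ± 29.5 CPM in XCKO and 94.5 ± 6.12 CPM in XCON (SD, n = 3 each). The log2 fold change was 0.06 ± 0.22 (adjusted p = 0.875), and its sign turned with library totals alone (−0.21) and not with median-of-ratios size factors (0.090). Within each library, the ratio of Fcgr2b to Fcgr1 in CPM was 18.3, 20.2 and 12.8 in XCKO, against 4.86, 3.22 and 6.36 in XCON, without overlap. This ratio sets the 1 gene above 0 over a gene called lower in the same libraries. Its separation therefore adds no result of its own. The ratio of Fcgr2b to Stab2, a scavenger receptor of sinusoidal endothelium, was 0.540, 0.738 and 0.809 in XCKO and 0.794, 0.884 and 0.697 in XCON, with overlap. Gene length cancels when such a ratio is set between libraries.

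Mrc1, the mannose receptor, is likewise made by both Kupffer cells and sinusoidal endothelium. Mrc1 had 141, 78.2 and 111 CPM in XCKO, against 140, 187 and 125 CPM in XCON (−0.45 ± 0.25, adjusted p = 0.252). The groups overlapped through XCKO 1. Apart from Fcgr2b, Mrc1 had the log2 fold change nearest to 0 of the 35 genes. The ratio of Mrc1 to Stab2 was 0.601, 0.847 and 0.891 in XCKO, against 1.20, 1.63 and 0.969 in XCON, without overlap. The 12 markers of sinusoidal endothelium had a median log2 fold change of 0.01 with none past the threshold (none had an unadjusted p under 0.05). They summed to 1113, 575 and 700 CPM in XCKO, against 769, 781 and 795 CPM in XCON. Ptprb had the smallest p among them (−0.36, edgeR adjusted p = 0.246). The part of endothelial RNA in the Mrc1 and Fcgr2b values was not tested.

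**Figure D2:**
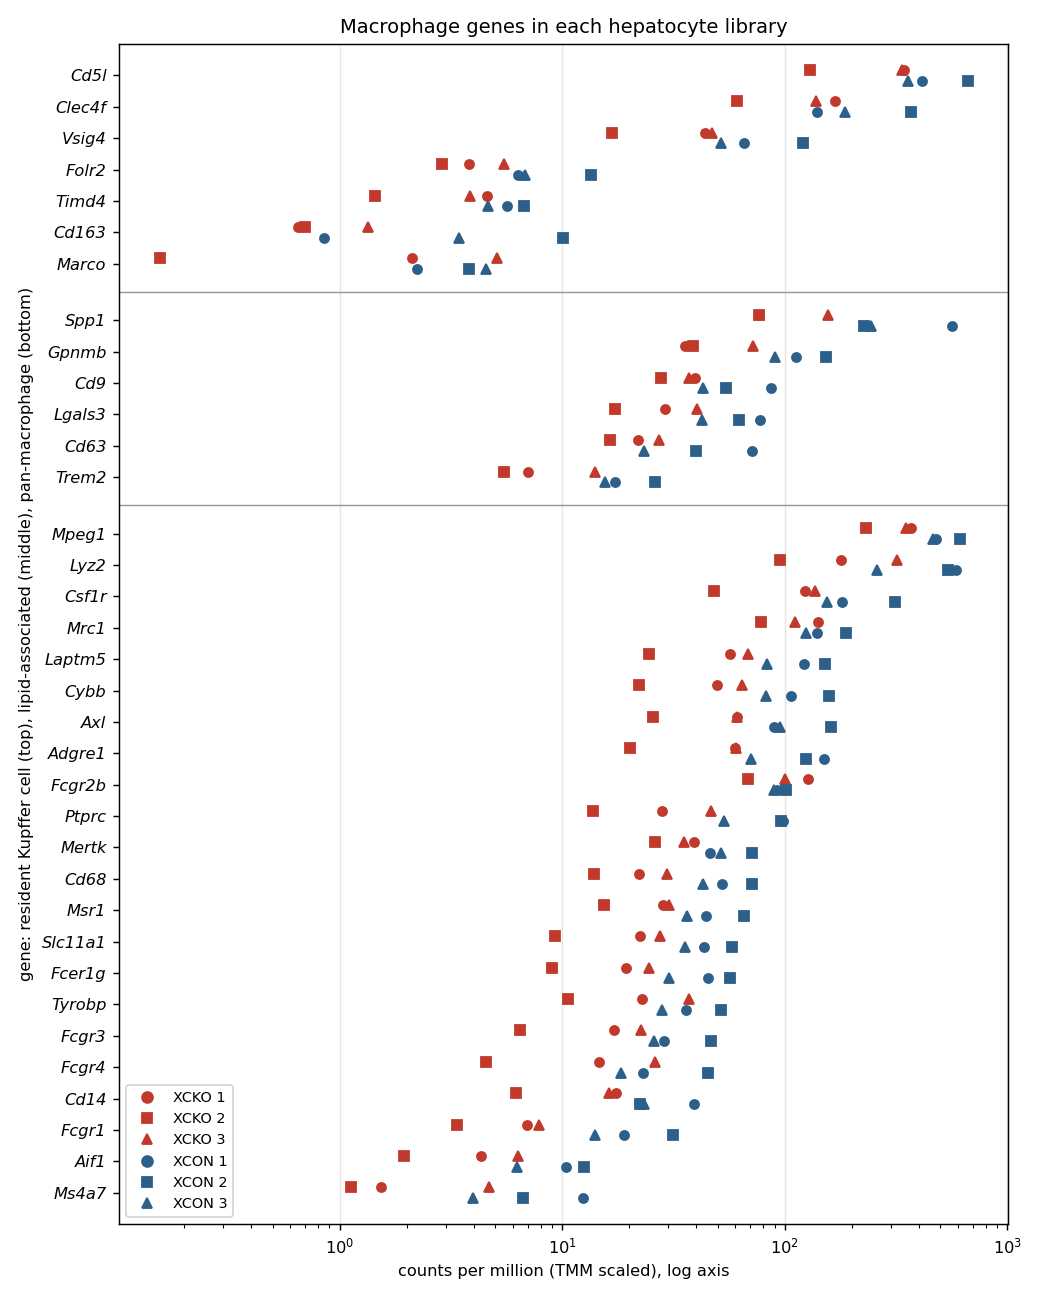
CPM (TMM scaled, log axis) of the 35 genes in each library, with XCKO above XCON for each gene and symbols for the library number. XCKO 2 holds the lowest value in 33 of the 35 genes, and XCON 2 the highest in 24.

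The adaptors through which these receptors signal gave unequal values. Fcer1g, the shared signalling chain of the activating Fc receptors, had 19.3, 8.97 and 24.6 CPM in XCKO, against 45.1, 56.6 and 30.0 CPM in XCON, without overlap (−1.32 ± 0.38, adjusted p = 0.0713). Tyrobp, the adaptor that Trem2 signals through, had 22.8, 10.6 and 37.3 CPM in XCKO, against 35.9, 51.5 and 27.9 CPM in XCON, and XCKO 3 lay above XCON 1 and XCON 3 (−0.71 ± 0.44, adjusted p = 0.323). Of 11 downstream kinases, phosphatases and adaptors, none passed, 11 had a log2 fold change below 0 and the median was −1.05. Plcg2, the phospholipase of this pathway, had the smallest p (−1.23, adjusted p = 0.0844).

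Receptors for growth factor and for dying cells followed. Csf1r had 123, 48.2 and 137 CPM in XCKO, against 181, 312 and 154 CPM in XCON, without overlap (−1.07 ± 0.43, adjusted p = 0.145). Axl and Mertk encode receptor kinases that recognise dying cells through the bridging proteins GAS6 and protein S. Axl had 61.1, 25.6 and 60.7 CPM in XCKO, against 89.7, 161 and 95.2 CPM in XCON, and Mertk had 39.0, 26.1 and 35.3 CPM in XCKO, against 46.2, 71.3 and 51.6 CPM in XCON. Neither overlapped between groups, and Mertk came close to the threshold (−0.75 ± 0.21, adjusted p = 0.0564) with a smaller fold change than Axl (−1.23 ± 0.38, adjusted p = 0.0790). For the bridging proteins and the related receptor Tyro3, no gene of 3 passed, and Pros1, which encodes protein S, had a log2 fold change of 0.42 (adjusted p = 0.133).

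Genes of the phagosome and of microbial killing came next. Cybb, the catalytic subunit of the phagocyte oxidase, had 49.7, 22.0 and 64.0 CPM in XCKO, against 106, 158 and 82.1 CPM in XCON (−1.35 ± 0.41, adjusted p = 0.0767). None of its 5 oxidase partners passed, all 5 had a log2 fold change below 0, and Ncf4 had the smallest p (−1.41, adjusted p = 0.0638). Mpeg1, a pore-forming protein of the phagosome, had 368, 230 and 350 CPM in XCKO, against 478, 614 and 464 CPM in XCON, without overlap (−0.71 ± 0.23, adjusted p = 0.0776). Slc11a1, a metal transporter of the phagosome, had a log2 fold change of −1.21 (adjusted p = 0.0881). Lyz2, the macrophage lysozyme, had 178, 95.1 and 318 CPM in XCKO, against 585, 539 and 258 CPM in XCON, and XCKO 3 exceeded XCON 3 (−1.23 ± 0.47, adjusted p = 0.137). Lyz2 has a near-identical neighbour, Lyz1, so its count is uncertain where reads fit both genes.

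Of the remaining genes, Adgre1, an adhesion receptor that is the standard macrophage marker in the mouse, had 59.9, 20.2 and 60.3 CPM in XCKO, against 149, 125 and 70.5 CPM in XCON (−1.30 ± 0.45, adjusted p = 0.109). Ptprc, the phosphatase CD45 of all leukocytes, had 28.1, 13.7 and 46.5 CPM in XCKO, against 97.8, 95.8 and 53.0 CPM in XCON (−1.48 ± 0.44, adjusted p = 0.0776). Neither overlapped between groups. The scavenger receptor Msr1, the endotoxin receptor subunit Cd14 and the lysosomal protein Laptm5 had log2 fold changes of −0.99, −1.09 and −1.25, also without overlap (adjusted p = 0.0761, 0.123 and 0.0819). The calcium-binding protein Aif1 and the tetraspan protein Ms4a7 had log2 fold changes of −1.21 and −1.65, with XCKO 3 above XCON 3 in both (adjusted p = 0.107 and 0.126).

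Levels between genes were compared per length, on the authors' FPKM, which divides a gene's fragments by its length and by the library total. Lyz2 was highest in both groups, at 151 ± 88.7 FPKM in XCKO and 340 ± 127 FPKM in XCON (SD, n = 3 each). Cd5l followed in both at 133 ± 61.0 FPKM in XCKO and 227 ± 74.9 FPKM in XCON. Spp1 averaged 62.8 ± 29.3 FPKM in XCKO, below Mpeg1, and 203 ± 111 FPKM in XCON, above Mpeg1. In XCON, Cd5l and Spp1 differed by less than their spread. So did Lyz2 and Cd5l in XCKO, and in XCKO 1 Cd5l (169 FPKM) was above Lyz2 (135 FPKM). Mpeg1 averaged 73.0 FPKM in XCKO and 116 FPKM in XCON, and Clec4f 49.6 FPKM in XCKO and 90.9 FPKM in XCON. Trem2 averaged 1.80 FPKM in XCKO and 3.86 FPKM in XCON, far below Gpnmb, its companion in the class, at 7.48 FPKM in XCKO and 17.7 FPKM in XCON. Ms4a7 (0.553 FPKM in XCKO, 1.67 FPKM in XCON) and Cd163 (0.165 FPKM in XCKO, 0.851 FPKM in XCON) were lowest. Fcgr2b averaged 17.0 FPKM in XCKO and 15.9 FPKM in XCON.

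Summed over classes, the lipid-associated genes stood at 0.379 of their XCON mean in XCKO, the pan-macrophage genes at 0.517 and the resident genes at 0.540. The lipid-associated sum was 209, 182 and 347 CPM in XCKO, against 928, 563 and 460 CPM in XCON. Spp1 alone gave 563 of the 928 CPM in XCON 1, so this sum leans on 1 gene. By median log2 fold change the order differed, with −1.21 for the pan-macrophage, −1.11 for the lipid-associated and −0.92 for the resident genes. The resident sum was 567, 212 and 535 CPM in XCKO, against 632, 1187 and 613 CPM in XCON. The pan-macrophage sum was 1408, 734 and 1584 CPM in XCKO, against 2439, 2984 and 1791 CPM in XCON. No class sum overlapped between groups, and the difference between classes was not tested.

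**Figure D3:**
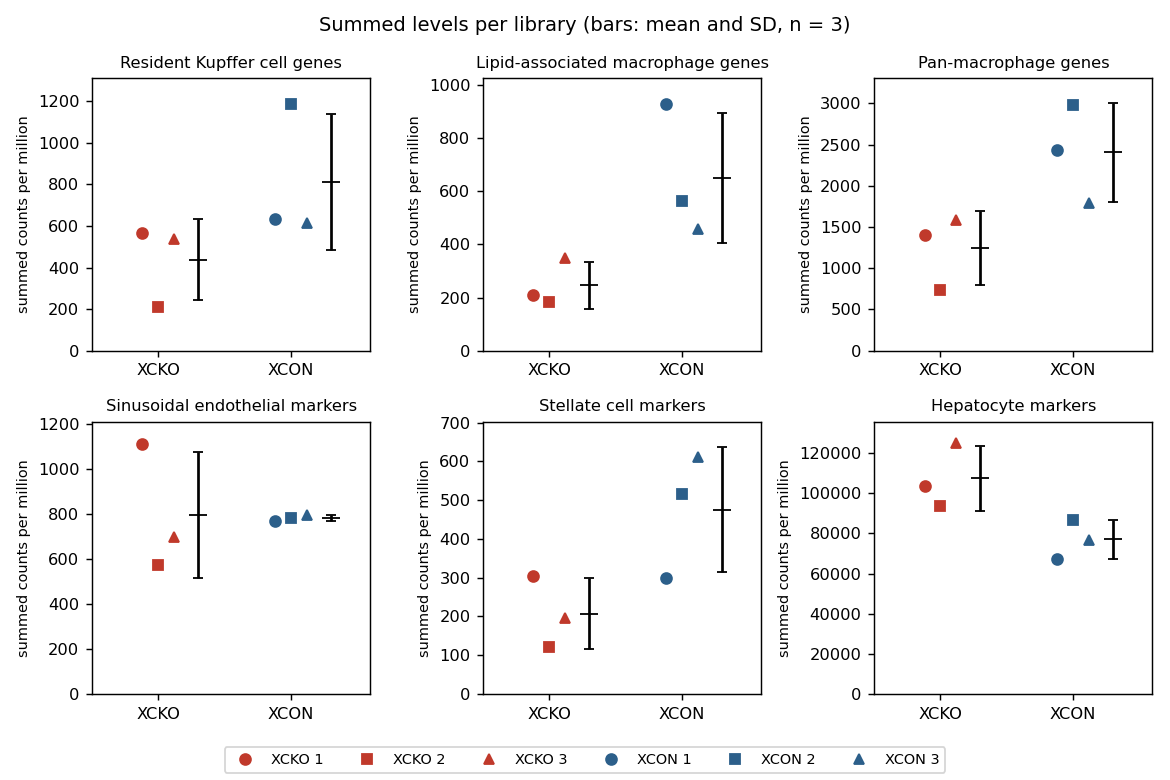
Summed CPM per library for the 3 classes of macrophage genes (top) and for markers of sinusoidal endothelium, stellate cells and hepatocytes (bottom), with the mean and SD of 3 libraries per group. The class sums are lower in every XCKO library, the hepatocyte sum is higher in every XCKO library, and the endothelial sums overlap.

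The balance between the classes did not separate the groups. The ratio of the lipid-associated to the resident sum was 0.370, 0.856 and 0.649 in XCKO, against 1.47, 0.474 and 0.750 in XCON. Without Spp1, the most abundant gene of its class, that ratio was 0.234, 0.497 and 0.356 in XCKO, against 0.579, 0.283 and 0.350 in XCON. The ratio of Trem2 to Adgre1 was 0.117, 0.271 and 0.233 in XCKO, against 0.116, 0.209 and 0.221 in XCON. The ratio of Clec4f to Adgre1 was 2.80, 3.01 and 2.29 in XCKO, against 0.939, 2.94 and 2.64 in XCON. Between both class sums, and between Clec4f and Adgre1, XCON 1 stood apart, with the highest value of all libraries in the one and the lowest in the other.

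Cells other than macrophages also differed between preparations. Set against the endothelial sum of the same library, the 35 genes stood at 1.96, 1.96 and 3.53 in XCKO, against 5.20, 6.07 and 3.60 in XCON, without overlap. By class, the pan-macrophage sum overlapped in this ratio (2.265 in XCKO 3, 2.252 in XCON 3). The resident sum was barely apart (0.765 in XCKO 3, 0.771 in XCON 3), and the lipid-associated sum did not overlap (0.496 in XCKO 3, 0.578 in XCON 3). Set against the 11 stellate cell markers, they stood at 7.18, 9.27 and 12.6 in XCKO, against 13.4, 9.17 and 4.68 in XCON, with overlap. Those stellate markers summed to 304, 122 and 196 CPM in XCKO, against 298, 516 and 612 CPM in XCON, and Pdgfrb, Lrat and Lum fell. As a percentage of the hepatocyte sum, the 35 genes came to 2.11, 1.21 and 1.97 in XCKO, against 5.93, 5.45 and 3.73 in XCON. The hepatocyte sum itself stood at 1.40 of its XCON mean in XCKO, so this percentage carries differences in both sums. XCKO 2, the lowest library for 33 of the 35 genes, was also lowest for 10 of the 12 endothelial and 10 of the 11 stellate markers. The part of cell composition in the macrophage values was not tested.

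**Figure D4:**
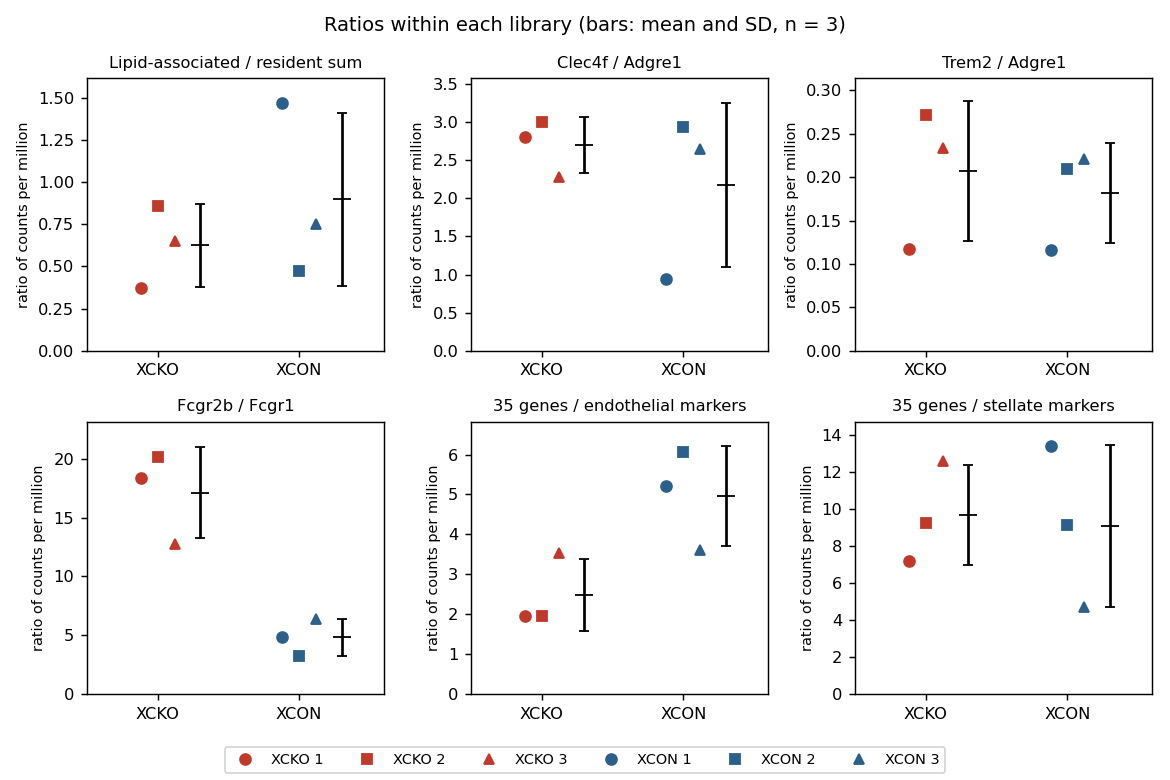
Ratios of CPM within each library, with the mean and SD of 3 libraries per group, for class sums, gene pairs, and the 35 genes over endothelial and stellate markers. The Fcgr2b to Fcgr1 ratio and the ratio of all 35 genes to endothelial markers separate XCKO from XCON, and the other 4 ratios overlap. The first follows from the choice of a gene that did not fall over one that did. The second separates narrowly, with 3.53 in XCKO 3 and 3.60 in XCON 3.

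Markers of other leukocytes were read from the same libraries. The 8 monocyte markers summed to 26.2, 10.8 and 42.2 CPM in XCKO, against 70.6, 73.2 and 41.0 CPM in XCON, with 0 of 8 past the threshold (5 had an unadjusted p under 0.05). Plac8 had the smallest p among them (−1.37, adjusted p = 0.0540). The 12 markers of T and NK cells summed to at most 10.5 CPM in an XCKO library and 26.1 CPM in an XCON library. None of 11 tested passed the threshold (3 had an unadjusted p under 0.05). Lck had the smallest p of these (−1.52, edgeR adjusted p = 0.115). Clec9a of 8 dendritic cell markers (−0.89, edgeR adjusted p = 0.0352) and Cd22 of 7 B cell markers (−1.61, edgeR adjusted p = 0.0401) fell. The dendritic cell markers summed to 18.7, 13.4 and 21.6 CPM in XCKO, against 28.6, 24.2 and 17.9 CPM in XCON, with overlap. Of these markers, 6 had a log2 fold change below 0 and 2 above. The B cell markers summed to 30.1, 15.8 and 36.5 CPM in XCKO, against 106, 33.1 and 38.0 CPM in XCON, also with overlap, and all 7 were below 0. Of 4 adipocyte markers none was abundant enough to test, and Lep had no read in any library. The 9 neutrophil markers summed to 50.4, 6.17 and 106 CPM in XCKO, against 44.3, 31.8 and 16.2 CPM in XCON, with overlap, and 0 of 7 tested passed (1 had an unadjusted p under 0.05). That gene was Csf3r, a growth factor receptor of neutrophils, with 5.91, 2.52 and 9.47 CPM in XCKO, against 19.0, 20.2 and 12.0 CPM in XCON (−1.52, adjusted p = 0.0719). Ly6g, the defining neutrophil marker, had 0, 0 and 4 reads in XCKO, against 4, 0 and 0 reads in XCON.

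The 35 genes varied together from library to library. Over the 6 libraries, the median Pearson correlation of log2 CPM between 2 of the genes was 0.889 across 595 pairs, and 560 pairs were above 0.5. After each group's mean was removed, the median was 0.80 and 475 pairs were above 0.5. The genes therefore also varied together among the libraries of a group. These libraries share depth and cell composition across genes, and the correlations are given as a description. Laptm5, a lysosomal protein of leukocytes, had the highest median correlation with the others (0.956) and Fcgr2b the lowest (0.459). Within groups, Spp1 (0.294), Cd163 (0.397), Cd9 (0.435) and Cd63 (0.471) were the least correlated with the rest.

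Other genes of the same cells were read from lists of 61 genes in all. Of 12 further Kupffer cell genes, none passed (5 had an unadjusted p under 0.05), all had a log2 fold change below 0, and the median was −0.70. Cd38, an enzyme that breaks down NAD, had the smallest p (−0.85, adjusted p = 0.0545). Among 17 further lipid-associated macrophage genes, Atp6v0d2, a subunit of the proton pump (−1.28, adjusted p = 0.0178), and Mmp12, the macrophage elastase (−1.57, adjusted p = 0.0437), fell. Apoe, which hepatocytes also make in quantity, rose (1.22, adjusted p = 0.0187). The median of that list was −0.28, with 12 of the 17 genes below 0 and 5 above. Some of its cathepsins and lipid carriers are made by hepatocytes as well, and the part of hepatocyte RNA in these values was not tested.

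Among 13 growth factors and transcription factors of macrophages, 3 fell and 0 rose, with a median of −0.83, beside 4.05% of all tested genes called lower. Mitf, a regulator of lysosomal genes, had 3.72, 4.42 and 4.37 CPM in XCKO, against 9.31, 10.01 and 8.62 CPM in XCON (−1.16, adjusted p = 0.0147). Runx1, a regulator of blood cell formation, had 2.95, 1.05 and 2.12 CPM in XCKO, against 6.31, 8.06 and 4.94 CPM in XCON (−1.66, adjusted p = 0.0327). Zeb2, which maintains tissue macrophage identity in mouse, had 20.7, 11.1 and 24.7 CPM in XCKO, against 43.7, 60.6 and 35.8 CPM in XCON (−1.31, adjusted p = 0.0419). In none of the 3 did the groups overlap. Spi1, which encodes PU.1, had 15.2, 6.91 and 23.4 CPM in XCKO, against 26.6, 38.5 and 19.8 CPM in XCON, with overlap (−0.90, adjusted p = 0.214).

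In the authors' deposited table of this comparison, 27 of the 35 genes (77.1%) were lower in XCKO past its adjusted p of 0.05, beside 4.66% of the 24709 genes it compares, and 0 were higher. The 3 genes called here were among the 27. The authors' comparison also covers genes too low in counts to be tested here, whereas all 35 passed that filter. DESeq2 on the 14873 genes tested here called 27 of the 35 lower, beside 8.32% of all genes. With library totals alone in place of TMM scaling, edgeR called 23 of the 35 lower (65.7%), beside 13.7% of all tested genes, and the median log2 fold change was −1.43 for the 35 and −0.31 for all genes.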

How the data were processed

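Per the labels' protocols, RNA from isolated hepatocytes was extracted with Trizol and made into libraries with a NEBNext Ultra RNA kit. In 1 table the authors deposited read counts (not normalized) and FPKM for each Ensembl gene and library, with the log2 fold change, p-value and adjusted p-value of their own comparison. Bowtie 0.12.2 and 2 genome builds, mm8 and mm10, appear in the submitters' processing notes, with no roles. No source used here names the read counter or its use of strand, and antisense neighbours (Gm10602 of Folr2, Hmgxb3 of Csf1r) are not separated. Of the table's identifiers 99.77% were in GENCODE M21 (GRCm38), and 32 of the 35 genes had identical coordinates there.

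Counts were tested with edgeR 4.0.16 (R 4.3.3): filterByExpr, TMM, the robust quasi-likelihood F test without covariates, Benjamini-Hochberg adjustment over 14873 genes and a threshold of 0.05. Standard errors are fold changes (log2) over the square root of F. The biological coefficient of variation was 25.8%. CPM use TMM-scaled totals, and correlations use log2(CPM + 0.5). The fitting was tested on simulated data. Alternatives were median-of-ratios size factors, library totals alone, no filter, a filter of 5 CPM in 3 samples, a replicate block, DESeq2 1.42.0, limma 3.58.1 (voom, and log2 of FPKM plus 1 or 0.1 for genes with at least 1 FPKM in 3 libraries, which leaves out Cd163), a gene length offset, and leaving out each library. Each library counted as 1 replicate. Libraries of a group differed beyond counting noise (chi-square per degree of freedom at least 52.4), which cannot show whether they came from different mice. Named genes were the deleted gene, all 35 members, and of each other list up to 3 genes past the threshold with the smallest p, or else the 1 with the smallest p, plus Spi1, Stab2, Ly6g, Lep, S100a8 and Ngp, chosen after their values were seen. The 35 genes and the lists were chosen with earlier results of these data known.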

Additional observations from a re-analysis of the deposited data

How the results depend on the processing

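No setting called any of the 35 genes higher. Of their values under other settings, 477 kept sign and side of the threshold, 55 passed in addition, 19 no longer passed and 4 turned sign. With a library left out, Marco ran from −1.62 to 0.088 and Fcgr2b from −0.15 to 0.32. Fcgr2b was −0.21 with library totals alone and −0.000202 with the filter of 5 CPM.

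The number of the 35 called lower was 3 as reported and with median-of-ratios factors or log2(FPKM + 1). It was 23 with library totals alone, 6 without a filter (Fcgr1 not among them), 5 of 32 with the filter of 5 CPM, 27 with DESeq2, 4 with limma-voom or the length offset, 1 with log2(FPKM + 0.1), and 0 to 3 with a library left out. Of all tested genes, the share called lower was 4.05% as reported, 3.71% with median-of-ratios factors and 3.2% with log2(FPKM + 1). It was 13.7% with library totals alone, 3.66% without a filter, 6.37% with the filter of 5 CPM and 8.32% with DESeq2. With limma-voom it was 4.15%, with the length offset 2.88% and with log2(FPKM + 0.1) 2.55%. With a library left out it ran from 0.847% to 1.85%. Over all genes, 603 were lower and 775 higher. These counts were 2032 lower and 326 higher with library totals alone, 975 and 1185 without a filter, 1238 and 1415 with DESeq2, 351 and 1036 with log2(FPKM + 1) and 280 and 750 with log2(FPKM + 0.1). With a library left out they ran from 131 to 287 lower and from 178 to 523 higher. The share of calls that were higher was 56.2% as reported, 13.8% with library totals alone, 74.7% with log2(FPKM + 1) and 72.8% with log2(FPKM + 0.1). Of the 61 other macrophage genes, 5 were lower and 1 higher. It was 28 lower with library totals alone, 9 without a filter, 8 with the filter of 5 CPM, 7 with limma-voom, 22 lower and 2 higher with DESeq2, 4 and 2 lower with log2(FPKM + 1) and log2(FPKM + 0.1), 2 lower with the length offset, and 1 to 5 lower and 0 to 1 higher with a library left out. The causes were not tested.

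With the replicate number as a block (replicate block), 0 of the 35 genes and 0 of the 61 others passed, and 102 genes were lower and 220 higher over all (68.3% higher). The adjusted p of Cd68, Fcgr1 and Gpnmb lay between 0.089 and 0.0905. Same-numbered libraries did not deviate together (r = 0.055, 0.076 and −0.168), and XCKO 1 correlated best with XCON 3 (0.095). No label says whether the numbers pair the samples. Correlations of deviations from means of 3 libraries cannot exclude a weak pairing. Depth limits Cd163, Marco, Timd4, Folr2 and Ms4a7 most, the genes with the fewest reads, and the tests rest on 3 libraries per group.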

Other observations

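Transcripts of red cells and granulocytes, outside the macrophage lists, separated the XCKO libraries from each other. Globin genes summed to 329, 14.8 and 825 CPM in XCKO, against 18.6, 9.13 and 13.8 CPM in XCON. Neutrophil markers did not move as 1 list, with 4 of the 7 tested at a log2 fold change below 0 and 3 above. Of those above 0, S100a8, a calcium-binding protein abundant in neutrophils, had 11.8, 1.47 and 29.0 CPM in XCKO, against 4.50, 2.24 and 0.879 CPM in XCON, and Ngp, a neutrophil granule protein, had 12.7, 0 and 23.0 CPM in XCKO, against 1.85, 0.257 and 0 CPM in XCON. Csf3r was lower in every XCKO library than in any XCON library. XCKO 1 and XCKO 3 were high for the globin genes, S100a8 and Ngp, and XCKO 2 was in or near the XCON range. The same library, XCKO 2, was lowest for 33 of the 35 macrophage genes. None of the 7 neutrophil markers tested or the 5 erythroid markers passed edgeR's adjusted p of 0.05 (1 and 5 had an unadjusted p under 0.05). Alas2, the erythroid form of the first enzyme of haem synthesis, had 76.1, 62.6 and 92.4 CPM in XCKO, against 23.5, 34.3 and 56.2 CPM in XCON.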
